A study of Mus musculus with 43 samples.

Results

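Genes of glucose uptake and glycolysis, 10 in all, were followed in RNA-seq of mouse inguinal white adipose tissue, fat that lies under the skin of the groin. They were taken from a fixed list of glucose transporters, glycolytic enzymes and lactate dehydrogenases, matched by gene identifier to mouse symbols. Of the 10 listed genes, 7 had a row among the 22622 gene identifiers of each table: Slc2a4, Pfkp, Pfkfb3, Aldoa, Pkm, Ldha and Ldhb. The other 3, Slc2a1, Hk2 and Pfkl, were not analysed here.

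The 43 libraries fall into 9 groups in 5 tables, each table holding 1 comparison. Wild-type C57BL/6J mice at postnatal day 28 (P28) were kept at 30 C (n = 4) or at 22 C (n = 4). Mice labelled TrkA-flox Th-cre, at P28 and 22 C (n = 4), were set against the same 4 wild-type libraries at 22 C. Th-cre is active where tyrosine hydroxylase is made, as in sympathetic neurons; these wild-type controls are not labelled as carrying the floxed allele. Mice labelled Bcl6-flox Prx1-cre were compared with mice labelled Bcl6-flox at P25 and 22 C (n = 8 and 7) and at 9 weeks and 4 C (n = 4 each). Both of those genotypes carry the floxed Bcl6 allele, a gene for a repressor of transcription, and Prx1-cre is active in mesenchyme, such as that of the limbs, and not in fat cells alone. C57BL/6J mice at 9 weeks were kept at 4 C (n = 4) or 22 C (n = 4). The labels give neither the length of the cold exposure nor whether each library is a separate animal, so the p-values rest on the spread among libraries, which may be technical.

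Glycolysis turns glucose into pyruvate, which mitochondria burn or lactate dehydrogenase turns into lactate. In fat cells insulin moves the transporter encoded by Slc2a4 to the cell surface, and the step catalysed by phosphofructokinase commits the sugar to glycolysis. Cold and adrenergic signals are known to raise glucose uptake in brown and beige fat, the fat cells that make heat through Ucp1.

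The groups at 30 C and 22 C at P28 did not overlap for 3 members, Ldha, Ldhb and Pfkp, as for 12.9% of all tested genes. Of the 3 members only Ldhb had an adjusted p under 0.05 by limma. The promoter windows of all 3 are shown because their groups did not overlap. Each spans an annotated start, 5′ to 3′ on the gene's strand, from RefSeq on GRCm38.p6, the mm10 build. Capitals mark ACGTG and GCGTG, the core letters bound by hypoxia-inducible factors, and CACGTG, an E-box that contains ACGTG, on either strand. The windows are Ldha at chr7:46845554-46845853 on the plus strand, Ldhb at chr6:142507908-142508207 on the minus strand and Pfkp at chr13:6648722-6649021 on the minus strand.

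Ldha: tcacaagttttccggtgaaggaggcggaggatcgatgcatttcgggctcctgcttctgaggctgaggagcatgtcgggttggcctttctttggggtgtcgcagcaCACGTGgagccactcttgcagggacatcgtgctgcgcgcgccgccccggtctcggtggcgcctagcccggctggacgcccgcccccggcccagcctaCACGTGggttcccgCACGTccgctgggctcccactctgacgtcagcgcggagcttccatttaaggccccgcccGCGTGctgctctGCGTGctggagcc

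Ldhb: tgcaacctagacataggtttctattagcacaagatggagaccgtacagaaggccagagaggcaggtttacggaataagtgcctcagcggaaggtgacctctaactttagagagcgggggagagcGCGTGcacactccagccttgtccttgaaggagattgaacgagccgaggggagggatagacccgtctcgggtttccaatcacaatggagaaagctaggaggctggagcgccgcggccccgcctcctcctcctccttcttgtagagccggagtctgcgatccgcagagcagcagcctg

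Pfkp: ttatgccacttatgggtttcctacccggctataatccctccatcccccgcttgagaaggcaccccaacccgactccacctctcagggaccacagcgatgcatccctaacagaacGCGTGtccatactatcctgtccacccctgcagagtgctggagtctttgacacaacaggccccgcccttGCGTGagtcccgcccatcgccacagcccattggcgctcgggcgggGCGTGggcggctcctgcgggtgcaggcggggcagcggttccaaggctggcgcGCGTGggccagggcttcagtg

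The Ldha window held 2 of these E-boxes, which 7.15% of all 32851 RefSeq windows of this length hold at least once. Over both strands it had 5 matches of the core with A, 4 of them inside the E-boxes, and 2 of the core with G, which 19.6% and 32.4% of all windows hold. In the Ldhb window there was no E-box, no core with A and 1 core with G, and in the Pfkp window there were 4 cores with G. The GC box (GGGCGG), in 35.7% of all windows, occurred 3 times in the Ldha window, 4 times in the Pfkp window and not in that of Ldhb. The CCAAT box, in 37.4% of all windows, occurred once each in Ldhb and Pfkp. TTCNNNGAA, a pair of half-sites read by both Stat5 and Bcl6 and held by 8.3% of all windows, was not found in any window of the 6 members matched. Of the 7 members 6 matched a window. Ldha, Pkm and Pfkfb3 have 2 windows and Aldoa 3. The Ldha window shown is the first of its 2. The other, at chr7:46846832-46847131 on the plus strand, held 2 cores with G but no E-box, core with A or GC box. Gene totals do not show which start was used, and these matches describe letters, not bound sites.

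The members lie on 6 chromosomes of mm10. Slc2a4 (gene ID 20528) spans chr11:69942286-69948216, Pfkp (56421) chr13:6579874-6649060, Pfkfb3 (170768) chr2:11471430-11554071 and Aldoa (11674) chr7:126795234-126800994. Pkm (18746) spans chr9:59656576-59679372, Ldha (16828) chr7:46842274-46855627 and Ldhb (16832) chr6:142490249-142507957. Values are totals over each whole gene, so the isoforms of Pkm are not separated. Aldoa, Pkm and Ldha have near-identical copies elsewhere in the genome, and how reads were divided between copies is not given in the sources used here, so their totals are uncertain to that extent.

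Values below are deposited normalized counts, scaled separately in each table, so that levels are compared only within a table. Estimated depth was 3503000 to 6432000 reads per library in the P28 tables, 4995000 to 15780000 at P25, 16870000 to 30730000 in the 9-week Bcl6 table and 6268000 to 8861000 in the 9-week temperature table; the estimates for the 9-week tables are rough. Of 8 adipocyte markers 7 had a row, and their mean log2 level was between 11.55 and 15.32 in every library. Ucp1 averaged 109 ± 52.0 at 30 C and 1758 ± 570 at 22 C (SD, n = 4 each). The Bcl6 total was higher, not lower, in the libraries labelled Prx1-cre, at 2714 ± 584 against 825 ± 340.4 at P25 and 11609 ± 2338 against 1995 ± 392.2 at 9 weeks. Gene totals do not show the deleted exons, so they do not check that label, and those groups are named here by their labels. Fewer cells of a type and less RNA per cell cannot be told apart in whole tissue.

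The first comparison asked what warm housing changes near weaning. At P28, Ldhb was lower at 30 C than at 22 C, and it was the only one of the 7 members past the threshold (limma adjusted p under 0.05); none rose. Among all 12283 tested genes 4.45% were called, 1.29% as higher and 3.17% as lower. All 7 members had a lower mean at 30 C, and 5 of them, all lower, passed at an unadjusted p under 0.05, as did 19.4% of tested genes. The median log2 fold change of the members was -0.52, against 0.01 over all tested genes. Groups of 3 members did not overlap, which was so for 12.9% of tested genes.

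Ldhb encodes the heart-type subunit of lactate dehydrogenase, the enzyme that interconverts pyruvate and lactate. Its normalized counts were 432, 403, 447 and 492 in the 4 libraries at 30 C, against 801, 823, 495 and 725 in the 4 at 22 C. Every library at 30 C lay below every library at 22 C, although replicate 3 at 22 C came within a few counts of the highest at 30 C. Xist, the RNA of the inactive X chromosome, was high (above 100) in 3 of 4 libraries at 30 C and in 2 of 4 at 22 C. The high-Xist libraries at 22 C, replicates 3 and 4, had 495 and 725, against 801 and 823 where Xist was low. Replicate 4 at 30 C, the only low-Xist library there, was the highest of its group, at 492. Means were 443 ± 37.4 at 30 C and 711 ± 149.9 at 22 C (SD, n = 4 each), so that the log2 fold change came to -0.66 ± 0.15 (SE; limma adjusted p = 0.0478). The call rested on the exact set of libraries. Without 22 C replicate 3 the adjusted p was 0.00175, and without any 1 of the other 7 libraries it was 0.0736 to 0.134 by limma, with log2 fold changes of -0.71 to -0.58. It also missed the threshold with no filter on low values (adjusted p = 0.0578 by limma) and with upper-quartile scaling (limma adjusted p = 0.0604).

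Ldha, the muscle-type subunit, had 4685, 5360.1, 4337 and 5287 normalized counts at 30 C, against 7396, 7944, 5485 and 7509 at 22 C. These groups did not overlap either, and the lowest library at 22 C was again replicate 3. The log2 fold change was -0.52 ± 0.13 (SE; limma adjusted p = 0.0548), on means of 4917 ± 491 at 30 C and 7083 ± 1092 at 22 C (SD, n = 4 each), just short of the threshold. The ratio of the subunits, Ldhb per 100 of Ldha in normalized counts, overlapped between the temperatures, at 9.09 ± 1.16 at 30 C and 9.97 ± 0.79 at 22 C (SD, n = 4 each).

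Phosphofructokinase of the platelet type, Pfkp, commits fructose phosphate to glycolysis. It had 473, 478, 387 and 380.0 normalized counts at 30 C, against 513, 558, 528 and 579 at 22 C. All 4 libraries at 30 C lay below all 4 at 22 C. Its log2 fold change was -0.35 ± 0.09 (SE; limma adjusted p = 0.0731). Pfkfb3, which makes the sugar phosphate that activates phosphofructokinase, ranged over 79.1 to 167 normalized counts at 30 C, against 106 to 165 at 22 C. Those ranges overlapped, with 1 library at 30 C above all others, and the log2 fold change was -0.34 ± 0.24 (SE; limma adjusted p = 0.4928), or -0.21 without 30 C replicate 1 and -0.56 without 30 C replicate 2.

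Aldoa and Pkm were lower in mean at 30 C and spread widely at 22 C. Aldoa, the aldolase that splits the 6-carbon sugar, had 7014, 8955, 6168 and 7519 normalized counts at 30 C, against 10619.6, 13834, 8516 and 14185 at 22 C. Replicate 3 at 22 C fell inside the range of 30 C, and the other 3 libraries at 22 C lay above it. The log2 fold change was -0.65 ± 0.18 (SE; limma adjusted p = 0.0798). Pkm, pyruvate kinase, the enzyme of the last step, had 3263, 3577, 2828 and 3354 normalized counts at 30 C, against 5194, 6001, 3445 and 5058 at 22 C. The same replicate 3 at 22 C overlapped the range of 30 C, and the log2 fold change was -0.57 ± 0.16 (SE; limma adjusted p = 0.0823). Without that replicate Aldoa, Pkm and Ldha passed at limma adjusted p = 0.0175, 0.00457 and 0.00534, and 4 members were called in place of 1. That fit called 714 genes of the whole table in place of 547. Aldoa, Pkm and Ldha each passed in only 1 of the 8 fits that left out a library.

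Slc2a4, the insulin-responsive glucose transporter, ranged over 1261 to 1646 normalized counts at 30 C, against 1251 to 1889.8 at 22 C. Libraries of both groups were mixed, and its log2 fold change, -0.16 ± 0.13 (SE; limma adjusted p = 0.583), was the nearest to 0 of the 7. Leaving out a library gave -0.29 (without 22 C replicate 3) to -0.09. The macrophage marker level as a covariate gave -0.59, past the threshold (limma adjusted p = 0.0292). That level was added once the data had been seen and did not overlap between the groups, so the fit can hardly separate it from temperature.

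**Figure D1:**
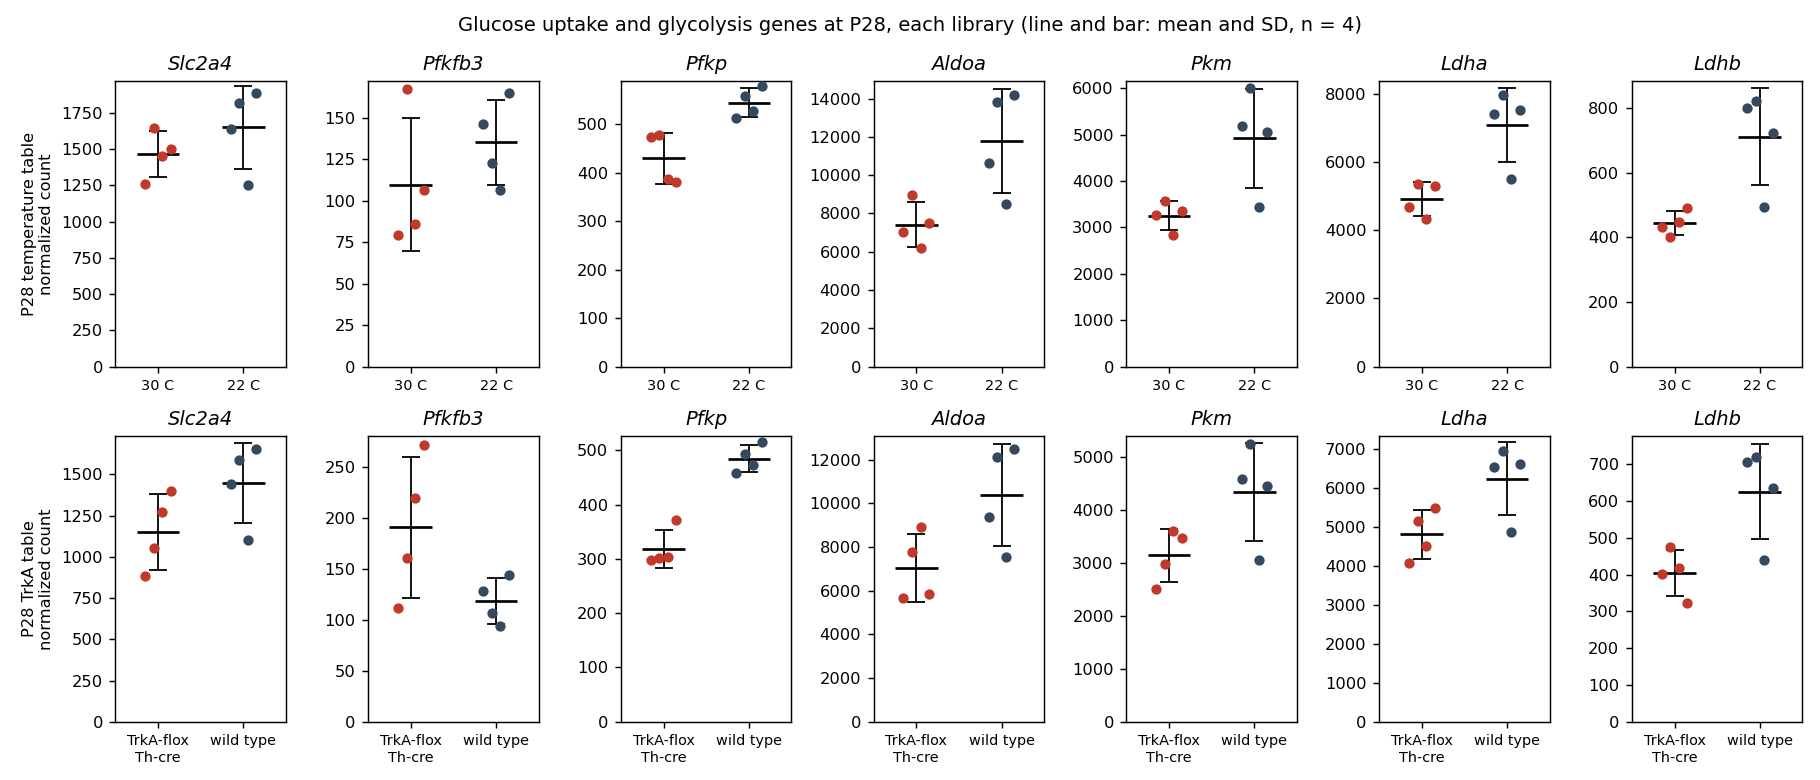
Normalized counts of the 7 members at P28, 1 point per library, with the 30 C group left of the 22 C group in the upper row and the TrkA-flox Th-cre group left of wild type in the lower row; lines and bars are the mean and SD of 4 libraries. Ldhb at 30 C sits between 403 and 492, below all 4 libraries at 22 C, and Pfkp in the TrkA-flox Th-cre group sits between 298 and 372, below all 4 wild-type libraries.

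Skeletal muscle also uses Aldoa, Pkm and Ldha. Of its 10 tested markers none passed the threshold, although their median log2 fold change was 2.55. The mean log2 level of 12 muscle markers was 7.45, 7.76, 4.08 and 9.58 in the libraries at 30 C, in replicate order, against 4.42 to 5.29 at 22 C. Replicates 1, 2 and 4 at 30 C were above all libraries at 22 C and replicate 3 was below them all; within 30 C, replicate 3 had the lowest Aldoa, Pkm and Ldha, and replicate 2, not replicate 4, the highest. With the muscle level as a covariate Ldhb stayed near its fold change, at -0.64, and no longer passed (limma adjusted p = 0.217). That fit called 87 genes of the whole table in place of 547. Macrophage markers were between 9.25 and 9.52 at 30 C, against 8.66 to 9.21 at 22 C, and 2 of 10 rose; with their level as a covariate, added once the data had been seen and not overlapping between the groups, all 7 log2 fold changes stayed below 0 and 5 members passed.

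Some neighbours of the members in the pathway fell at 30 C as well. Over all 12283 tested genes 3.17% were called lower and 1.29% higher. Of 17 tested other glycolytic enzymes 3 fell and none rose, with a list median of -0.21 on the log2 scale. These 3 act between aldolase and enolase. Phosphoglycerate mutase Pgam1 averaged 1247 ± 92.9 normalized counts at 30 C and 2079 ± 254 at 22 C (SD, n = 4 each), at -0.73 ± 0.10 (SE; limma adjusted p = 0.00595). For phosphoglycerate kinase Pgk1 the log2 fold change was -0.55 ± 0.08 (SE; limma adjusted p = 0.00726), and for triose phosphate isomerase Tpi1 -0.51 ± 0.10 (SE; limma adjusted p = 0.0261). Pgam1 and Pgk1 passed without any 1 of the 8 libraries, whereas Tpi1 lost its call, at limma adjusted p of 0.0579 to 0.0838, without 22 C replicate 1, 2 or 4 or 30 C replicate 2.

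Genes that carry pyruvate into mitochondria and oxidise it also fell. Of 17 tested genes of lactate and pyruvate handling 5 fell and none rose (list median -0.35), against 3.17% called lower among all tested genes. Mpc2, a subunit of the mitochondrial pyruvate carrier, averaged 539 ± 53.8 normalized counts at 30 C and 1165 ± 225 at 22 C (SD, n = 4 each), at -1.09 ± 0.14 (SE; limma adjusted p = 0.00499). The pyruvate dehydrogenase subunits Pdhb and Dlat had log2 fold changes of -0.99 ± 0.15 (SE; limma adjusted p = 0.0105) and -0.88 ± 0.12 (SE; limma adjusted p = 0.00674). Those 3 calls held without any 1 library. Pdp2, the phosphatase that activates pyruvate dehydrogenase, had -0.71 ± 0.15 (SE; limma adjusted p = 0.0313) and, among the fits that left out a library, passed only without 22 C replicate 1 or 3, with limma adjusted p up to 0.0911 otherwise. Tigar, a phosphatase of fructose bisphosphate, fell among 5 tested genes that control that sugar, at -0.68 ± 0.16 (SE; limma adjusted p = 0.0447). Among those fits it passed only without 30 C replicate 2, with an adjusted p up to 0.133 by limma otherwise. Of 19 tested regulators of glucose uptake 1 fell, Rab10, which carries the Slc2a4 protein to the surface in adipocytes, at -0.23 ± 0.05 (SE; limma adjusted p = 0.0413), and with a library left out it passed only without 22 C replicate 3 (limma adjusted p up to 0.113 otherwise). None of 9 tested other glucose transporters passed.

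The second comparison asked what loss of TrkA in Th-cre cells changes at the same age. Pfkp was lower in the libraries labelled TrkA-flox Th-cre than in wild type, the only 1 of 7 members past the threshold, and none rose. Among 11899 tested genes 2.66% were called, 1.34% as higher and 1.32% as lower. The members' median log2 fold change was -0.45, against -0.01 over all tested genes. At an unadjusted p under 0.05, 5 members were lower and 1 was higher, Pfkfb3, in a table where 19.2% of genes reached that level. The 4 wild-type libraries are the ones also used against 30 C, so the values in both comparisons share their controls. Xist was high in 1 of 4 TrkA-flox Th-cre libraries, replicate 3, and in 2 of 4 wild-type libraries, replicates 3 and 4.

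Pfkp had 298, 302, 304 and 372 normalized counts in the TrkA-flox Th-cre libraries, against 458, 494, 473 and 515 in wild type. The groups did not overlap, which was so for this member alone and for 11.2% of tested genes, and replicate 4 stood above the other TrkA-flox Th-cre libraries. Means were 319 ± 35.2 in TrkA-flox Th-cre and 485 ± 24.8 in wild type (SD, n = 4 each), with -0.61 ± 0.09 (SE; limma adjusted p = 0.0125) as the log2 fold change. The call was lost without wild-type replicate 4 (limma adjusted p = 0.0511) and held without any 1 of the other 7 libraries. With the muscle marker level as a covariate the log2 fold change was -0.53 and the adjusted p 0.312 by limma, in a fit that called 20 genes of the whole table in place of 317. That marker level was 5.5 to 7.86 in TrkA-flox Th-cre libraries, against 4.28 to 5.17 in wild type, and 3 of 11 tested muscle markers rose.

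Pfkfb3 differed in the other direction from the rest. It had 111, 160.2, 219 and 271 normalized counts in TrkA-flox Th-cre, against 128, 107, 93.7 and 144 in wild type. Replicates 2, 3 and 4 of TrkA-flox Th-cre lay above all wild-type libraries and replicate 1 lay among them. At 0.62 ± 0.25 (SE; limma adjusted p = 0.22) on the log2 scale it missed the threshold. Macrophage markers, of which 5 of 10 rose, had a mean log2 level of 9.26 to 9.63 in TrkA-flox Th-cre, against 8.49 to 9.02 in wild type. With that level as a covariate, an alternative chosen after seeing the data, the log2 fold change of Pfkfb3 was -0.029, opposite in sign. The level does not overlap between these groups and the fit called 2 genes of the whole table, so it leaves little to test.

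Both lactate dehydrogenase subunits were lower in mean. Ldhb had 402, 475, 418 and 324 normalized counts in TrkA-flox Th-cre, against 706, 720.0, 439 and 636 in wild type. Wild-type replicate 3, the lowest of its group, fell inside the range of the TrkA-flox Th-cre libraries, and the other 3 lay above it. The log2 fold change was -0.61 ± 0.17 (SE; limma adjusted p = 0.0867), and without that replicate it passed at limma adjusted p = 0.0215. Ldha ranged over 4081 to 5489 in TrkA-flox Th-cre, against 4868 to 6959 in wild type, at -0.37 ± 0.15 (SE; limma adjusted p = 0.205). Its groups overlapped through the same wild-type replicate.

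Aldoa ranged over 5661 to 8896 normalized counts in TrkA-flox Th-cre, against 7548 to 12465 in wild type, with -0.56 ± 0.20 (SE; limma adjusted p = 0.181) as the log2 fold change. Pkm ranged over 2499 to 3607 in TrkA-flox Th-cre, against 3053 to 5249 in wild type, at -0.45 ± 0.18 (SE; limma adjusted p = 0.205). The transporter Slc2a4 ranged over 883 to 1397 in TrkA-flox Th-cre, against 1105 to 1654 in wild type, at -0.33 ± 0.16 (SE; limma adjusted p = 0.302), or -0.21 without TrkA-flox Th-cre replicate 1. In all 3 genes every TrkA-flox Th-cre library lay below the wild-type mean, and the groups still overlapped. Of the other pathway genes 1 passed, Pgam1, 1 of 15 tested other glycolytic enzymes, which fell to 1299.8 ± 113 in TrkA-flox Th-cre, against 1829 ± 215 in wild type (SD, n = 4 each), at -0.49 ± 0.11 (SE; limma adjusted p = 0.0413). With a library left out, it passed only without wild-type replicate 3 or TrkA-flox Th-cre replicate 4, with limma adjusted p up to 0.123 otherwise. None of 9 tested transporters, 5 genes of fructose bisphosphate control, 17 of lactate and pyruvate handling or 19 regulators of uptake passed limma's threshold. Over all tested genes of the TrkA comparison 2.66% were called.

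**Figure D2:**
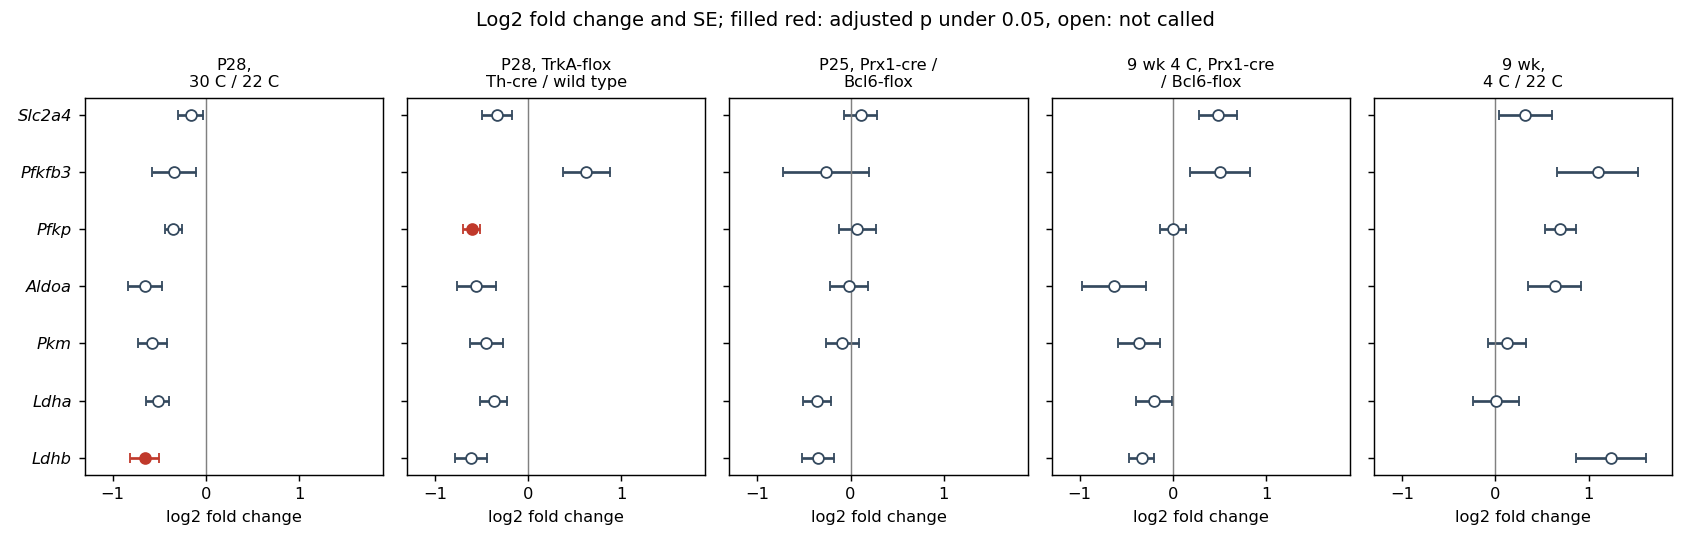
Log2 fold changes of the 7 members in the 5 comparisons, with bars of 1 standard error. Past the threshold are only Ldhb at 30 C against 22 C (-0.66) and Pfkp in TrkA-flox Th-cre against wild type (-0.61); at 9 weeks Ldhb was 1.24 and Ldha 0.01 at 4 C against 22 C.

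The third comparison set the libraries labelled Prx1-cre against Bcl6-flox at P25. No member passed limma's threshold, and 1 of 7, Ldha, reached an unadjusted p under 0.05, as did 15% of tested genes. Of the 12738 tested genes 3.53% were called, 1.56% higher and 1.97% lower. No member had groups that did not overlap (1.3% of tested genes), and the members' median log2 fold change was -0.09, against 0.00 over all tested genes. Ucp1 in the same libraries averaged 375 ± 234 in those labelled Prx1-cre and 6405 ± 3016 in Bcl6-flox (SD, n = 8 and 7), with a fold change on the log2 scale of -4.18 ± 0.38 (SE; limma adjusted p = 6.48e-06).

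Ldha ranged over 10919.8 to 17045 with a median of 14072 in the 8 libraries labelled Prx1-cre, against 14693 to 28995 with a median of 16147 in the 7 Bcl6-flox libraries. All 8 lay below the Bcl6-flox mean, while the ranges overlapped, and the Bcl6-flox library M4 stood highest of all 15. This put the log2 fold change at -0.36 ± 0.15 (SE; limma adjusted p = 0.263). Columns of this table are lettered M or F, and Xist, the RNA of the inactive X chromosome, was low in all M and high in all F columns. Among M columns Ldha was 13962 to 16588 in those labelled Prx1-cre, against 16148 to 28995 in Bcl6-flox, and among F columns it was 10919.8 to 17045, against 14693 to 15234. Ldhb ranged over 1318 to 2472 with a median of 1923 in the libraries labelled Prx1-cre, against 1736 to 3110.0 with a median of 2238 in Bcl6-flox, at -0.35 ± 0.17 (SE; limma adjusted p = 0.371).

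The remaining 5 members were close to even in mean. The log2 fold changes were 0.11 for Slc2a4, 0.07 for Pfkp, -0.01 for Aldoa, -0.09 for Pkm and -0.26 for Pfkfb3, with limma adjusted p of 0.848 to 0.988. Pfkfb3 was spread widest, at 89.7 to 683 with a median of 194 in the libraries labelled Prx1-cre, against 156 to 608 with a median of 233 in Bcl6-flox. Its 5 highest libraries, F2, F3 and F4 labelled Prx1-cre with 683, 609 and 429.6 normalized counts and M2 and F4 of Bcl6-flox with 413 and 608, were also the 5 with macrophage marker levels above 11. Those levels were 11.45, 11.03 and 11.27 in those labelled Prx1-cre and 11.23 and 11.54 in Bcl6-flox, and lay between 8.51 and 10.49 in the other 10 libraries. The same 5 also had the highest counts of the gene Prrx1. These were 1000.4, 1041 and 1260 in those labelled Prx1-cre and 1380 and 1450 in Bcl6-flox, against 350 to 833 in the other 10. A cause of the Pfkfb3 spread was not tested. With the macrophage level as a covariate, added once the data had been seen, the log2 fold change of Pfkfb3 was -0.88 (limma adjusted p = 0.100). With the muscle level it was -0.0084, and leaving out a library gave -0.48 to -0.067.

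At P25, 4 neighbouring genes passed. Ldhd, the mitochondrial D-lactate dehydrogenase, fell to 513 ± 66 in libraries labelled Prx1-cre, against 732 ± 100.1 in Bcl6-flox (SD, n = 8 and 7), at -0.51 ± 0.10 (SE; limma adjusted p = 0.00614). Akt1, a kinase of the insulin signal, rose to 3368 ± 441 in those labelled Prx1-cre, against 2348 ± 309 in Bcl6-flox, at 0.52 ± 0.10 (SE; limma adjusted p = 0.00549). Both passed without any 1 of the 15 libraries. Pdk3, which inhibits pyruvate dehydrogenase, and Pfkfb4, a relative of Pfkfb3, rose at 0.51 ± 0.12 (SE; limma adjusted p = 0.031) and 0.50 ± 0.13 (SE; limma adjusted p = 0.0389). Their calls were less stable, since Pdk3 passed in 7 and Pfkfb4 in 5 of the 15 fits that left out a library, with limma adjusted p up to 0.0749 and 0.0925. The counts were 2 of 17 for lactate and pyruvate handling, 1 of 5 for fructose bisphosphate control, 1 of 19 for regulators of uptake, and none of 18 other glycolytic enzymes or 9 other transporters. Over all 12738 tested genes at P25, 3.53% were called.

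The fourth comparison set the same labels side by side at 9 weeks in the cold. Again no member passed limma's threshold, in a table where 14.5% of 13496 tested genes did, 9.01% higher and 5.46% lower. At an unadjusted p under 0.05 were 2 members, Slc2a4 higher and Ldhb lower, against 29.9% of tested genes. No member had groups that did not overlap, as 22.3% of tested genes did, and the members' median was -0.20 on the log2 scale, against -0.02 over all tested genes.

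Slc2a4 had 19442, 18269, 15782 and 12268 normalized counts in the libraries labelled Prx1-cre, against 11727, 10686, 16026 and 8862 in Bcl6-flox. Each library labelled Prx1-cre lay above the Bcl6-flox mean, and the ranges overlapped through Bcl6-flox replicate 3 and Prx1-cre replicates 3 and 4. Its log2 fold change was 0.49 ± 0.20 (SE; limma adjusted p = 0.147). Without Bcl6-flox replicate 3 it was 0.65 and passed (limma adjusted p = 0.0237). That library had a muscle marker level of 13.94, against 3.88 to 9.27 in the other 7, and muscle also expresses Slc2a4. With the muscle level as a covariate the log2 fold change was 0.77 (limma adjusted p = 0.0299). Calls rose over the whole table as well in these fits. There were 3548 without Bcl6-flox replicate 3 and 2868 with the muscle level, in place of 1953. Whether muscle accounts for the Slc2a4 values was not tested.

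Ldhb had 5066, 6369, 6371 and 5065 normalized counts in the libraries labelled Prx1-cre, against 8019.6, 6340.4, 8413 and 6187 in Bcl6-flox. Bcl6-flox replicates 1 and 3 were above all others, and the rest were mixed. Its log2 fold change was -0.34 ± 0.13 (SE; limma adjusted p = 0.132). Ldha had 40657, 39998, 35990.5 and 24110.2, against 43172, 39878, 44911 and 32171 in Bcl6-flox, at -0.20 ± 0.19 (SE; limma adjusted p = 0.514). Replicate 4 was the lowest Ldha library in each group, and the other libraries overlapped. The log2 fold change was -0.033 without Prx1-cre replicate 4 and -0.31 without Bcl6-flox replicate 4.

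Aldoa had 80406, 85099, 82676 and 49613 normalized counts in the libraries labelled Prx1-cre, against 118081, 90296, 205151 and 73874 in Bcl6-flox. The highest was Bcl6-flox replicate 3, the library with the high muscle level, and the lowest was Prx1-cre replicate 4. The log2 fold change was -0.63 ± 0.34 (SE; limma adjusted p = 0.251), and without Bcl6-flox replicate 3 it was -0.34. Pkm ranged over 13149.5 to 22788 in those labelled Prx1-cre, against 18325 to 31605 in Bcl6-flox, at -0.36 ± 0.23 (SE; limma adjusted p = 0.328), or -0.19 without Prx1-cre replicate 4 and -0.23 without Bcl6-flox replicate 3. Pfkp was at 2094 to 2971 against 2073 to 2994 in Bcl6-flox, the log2 fold change being 0.00 ± 0.14 (SE; limma adjusted p = 0.999), and Pfkfb3 at 1306 to 2142 against 644 to 1927 in Bcl6-flox, at 0.51 ± 0.32 (SE; limma adjusted p = 0.328), or 0.78 without Bcl6-flox replicate 1 and 0.25 without replicate 4.

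**Figure D3:**
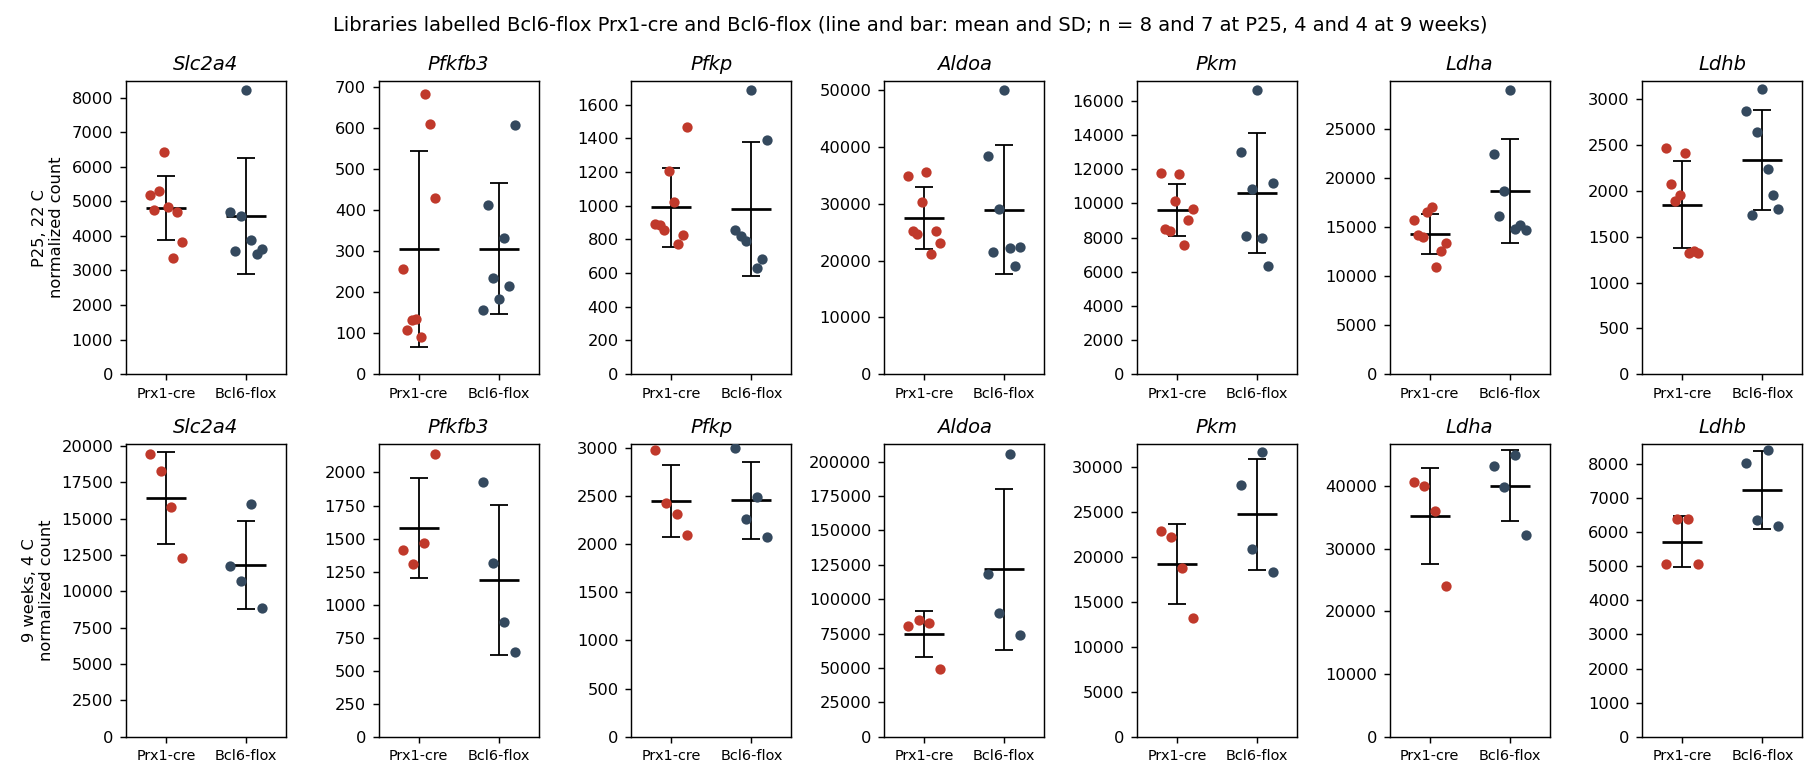
Normalized counts of the 7 members in libraries labelled Prx1-cre, left, and Bcl6-flox, right, at P25 in the upper row (n = 8 and 7) and at 9 weeks and 4 C in the lower row (n = 4 each), 1 point per library with the mean and SD. In every panel the 2 groups overlap, and 1 Bcl6-flox library at 9 weeks reaches 205151 for Aldoa.

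Each of the 5 lists of surrounding genes held at least 1 called gene in this table, where 14.5% of all tested genes were called. Slc16a1, the carrier of lactate and pyruvate across the cell membrane, fell to 1023 ± 222 in those labelled Prx1-cre, against 2563 ± 399 in Bcl6-flox (SD, n = 4 each), at -1.34 ± 0.17 (SE; limma adjusted p = 0.00232). Pdk3 rose to 293 ± 57.8 in those labelled Prx1-cre, against 122 ± 7.62 in Bcl6-flox, at 1.24 ± 0.15 (SE; limma adjusted p = 0.00229). Pdp2 and Ldhd fell at -0.52 ± 0.09 (SE; limma adjusted p = 0.00861) and -0.70 ± 0.10 (SE; limma adjusted p = 0.00432). These 4 calls held without any 1 library. In all, 4 of 17 genes of lactate and pyruvate handling fell and 1 rose.

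Among 19 tested regulators of uptake 2 rose and 2 fell, against 9.01% called higher and 5.46% lower over all tested genes. Akt1 rose at 0.60 ± 0.08 (SE; limma adjusted p = 0.00303) and Irs1, which couples the insulin receptor to that kinase, at 0.34 ± 0.07 (SE; limma adjusted p = 0.0117), each also without any 1 library. Tbc1d4, which holds the Slc2a4 protein inside the cell until Akt acts on it, fell at -0.39 ± 0.09 (SE; limma adjusted p = 0.0229), a call lost without Bcl6-flox replicate 1 or 4 (limma adjusted p = 0.0734 and 0.0538). Hif1a, the hypoxia-inducible factor that drives many glycolytic genes, fell at -0.48 ± 0.13 (SE; limma adjusted p = 0.0366). With a library left out, it passed only without Bcl6-flox replicate 3, with limma adjusted p up to 0.0923 otherwise.

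Of 15 other glycolytic enzymes 2 rose and none fell, in a table where 14.5% of all tested genes were called. Hk3, a hexokinase of blood cells, rose to 175 ± 8.87 in those labelled Prx1-cre, against 80.0 ± 7.04 in Bcl6-flox (SD, n = 4 each), at 1.12 ± 0.12 (SE; limma adjusted p = 0.00119), also without any 1 library. In the same libraries 9 of 10 macrophage markers rose, with a mean log2 level of 10.84 to 11.45 in those labelled Prx1-cre, against 10.02 to 10.36 in Bcl6-flox. With that level as a covariate the log2 fold change of Hk3 was 0.88 (limma adjusted p = 0.232); the level does not overlap between the groups, and this fit called 16 genes of the whole table in place of 1953. Eno2, an enolase, rose at 0.45 ± 0.13 (SE; limma adjusted p = 0.0461), and with a library left out it passed only without Bcl6-flox replicate 3. Slc2a6, 1 of 9 other transporters, rose at 1.24 ± 0.35 (SE; limma adjusted p = 0.0492), and its calls held only without Bcl6-flox replicate 3 or Prx1-cre replicate 1. Tigar, 1 of 6 genes of fructose bisphosphate control, fell at -1.06 ± 0.29 (SE; limma adjusted p = 0.044), and its calls held only without Bcl6-flox replicate 3 or 4. For Eno2, Slc2a6 and Tigar limma adjusted p reached 0.124, 0.127 and 0.105 in the fits that left out another library.

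The effect of the label was not shown to differ between the 2 settings. In the test of the difference between the 9-week and the P25 fold changes, 0 of 12487 genes passed (0%; 871 at an unadjusted p under 0.05), and of the members none had an unadjusted p under 0.05. The difference was largest for Pfkfb3, at 0.77 ± 0.56 on the log2 scale (SE; limma-based adjusted p = 0.823). Age and temperature differ together between these tables.

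The last comparison asked what cold housing changes in adult wild-type fat. No member passed limma's threshold, in a table where 4.47% of 12118 tested genes did, 2.03% higher and 2.44% lower. Mean levels of all 7 were higher at 4 C than at 22 C, that of Ldha barely (its log2 fold change turned to -0.085 with upper-quartile and -0.11 with quantile scaling), with a median log2 fold change of 0.64, against 0.02 over all tested genes. At an unadjusted p under 0.05, 3 members were higher (Pfkp, Ldhb and Pfkfb3), and 23.8% of tested genes reached that level in either direction. Groups of 2 members, Pfkp and Ldhb, did not overlap, as for 17.3% of tested genes. Ucp1 averaged 21153 ± 13417 at 4 C and 289 ± 149.5 at 22 C (SD, n = 4 each; limma adjusted p = 0.00248).

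Pfkp had 1145, 1312, 819 and 819 normalized counts at 4 C, against 584, 629, 596 and 664 at 22 C. All 4 libraries at 4 C lay above all 4 at 22 C, the first pair well above and the second pair nearer. Means were 1024 ± 246 at 4 C and 618 ± 36 at 22 C (SD, n = 4 each), and the log2 fold change came to 0.70 ± 0.16 (SE; limma adjusted p = 0.0512). It passed in 7 of 9 alternative settings, at adjusted p of 0.0135 to 0.0443 by limma, and in none of the 8 fits that left out a library.

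Ldhb had 2395, 4271, 1558 and 1453 normalized counts at 4 C, against 1213, 1257, 615 and 785 at 22 C. Every library at 4 C was above every library at 22 C, and replicate 2 at 4 C was far above the rest. Means were 2419 ± 1304 at 4 C and 967 ± 317 at 22 C (SD, n = 4 each), at 1.24 ± 0.37 (SE; limma adjusted p = 0.0903). Ldha had 10462, 15570.4, 8516 and 8964 at 4 C, against 12019.6, 13140.0, 8059 and 9575 at 22 C. Its groups were fully mixed, and its log2 fold change was 0.01 ± 0.25 (SE; limma adjusted p = 0.989).

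The ratio of the 2 subunits separated the temperatures in these adults. Ldhb per 100 of Ldha, a ratio of normalized counts not corrected for gene length, was 22.9, 27.4, 18.3 and 16.2 at 4 C, against 10.1, 9.56, 7.63 and 8.2 at 22 C. The groups did not overlap, with means of 21.2 ± 5.0 at 4 C and 8.87 ± 1.15 at 22 C (SD, n = 4 each); this ratio is given as a description with no test. In the other 4 comparisons the ratio overlapped between groups. It was 8.55 ± 1.79 in TrkA-flox Th-cre and 9.95 ± 0.79 in wild type (n = 4 each). It was 12.8 ± 2.01 in those labelled Prx1-cre and 12.7 ± 1.63 in Bcl6-flox at P25 (n = 8 and 7), and 16.8 ± 3.56 in those labelled Prx1-cre and 18.1 ± 1.5 in Bcl6-flox at 9 weeks and 4 C (n = 4 each).

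**Figure D4:**
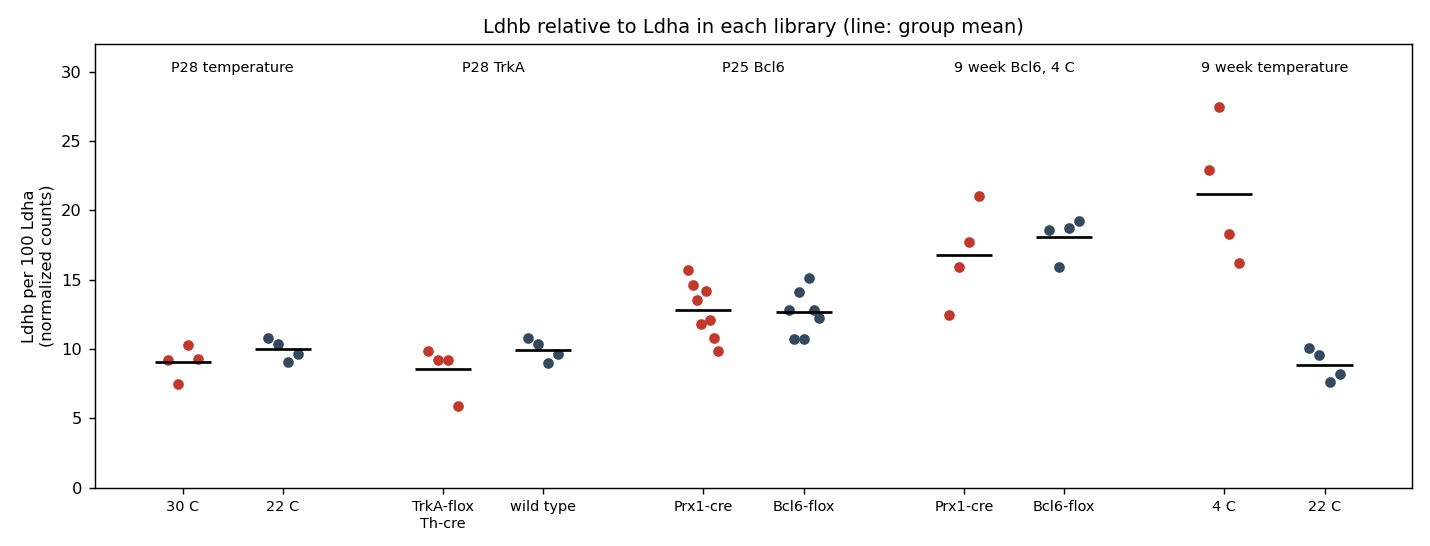
Ldhb per 100 of Ldha in every library of the 5 tables, as a ratio of normalized counts within a library, with a line at each group's mean. In adult wild-type fat the 4 libraries at 4 C lie at 16.2 or above and the 4 at 22 C at 10.1 or below; elsewhere the groups overlap.

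Libraries of each adult wild-type group split into 2 with low Xist (replicates 1 and 2) and 2 with high Xist (replicates 3 and 4). Pfkp and Ldhb were higher at 4 C within both sets. Ldhb was 2395 and 4271 at 4 C, against 1213 and 1257 at 22 C, where Xist was low, and 1558 and 1453 at 4 C, against 615 and 785 at 22 C, where it was high. With Xist as a covariate both passed, at limma adjusted p = 0.0135 for Pfkp and 0.00519 for Ldhb. That fit called 2226 genes of the whole table in place of 542, so more calls were not particular to these members.

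Pfkfb3 had 1083, 1190.1, 763 and 839 normalized counts at 4 C, against 257, 242, 671 and 928 at 22 C. Only the low-Xist libraries at 22 C were low, and the rest were mixed, with means of 1137 at 4 C and 249.5 at 22 C where Xist was low and 801 at 4 C and 799.6 at 22 C where it was high. The log2 fold change over all 8 was 1.10 ± 0.43 (SE; limma adjusted p = 0.167). Macrophage marker levels were 8.58 to 9.71 at 4 C, against 8.82 and 8.78 in the low-Xist and 10.53 and 10.17 in the high-Xist libraries at 22 C. With that level as a covariate, added once the data had been seen, the log2 fold change of Pfkfb3 was 1.27 and passed (limma adjusted p = 0.0289). That fit called 2518 genes of the whole table in place of 542.

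Aldoa had 33303, 45056, 20209.9 and 25459.5 normalized counts at 4 C, against 19972, 21227, 16178 and 19295 at 22 C. Replicates 1, 2 and 4 at 4 C were above all libraries at 22 C and replicate 3 lay among them, and the log2 fold change was 0.64 ± 0.28 (SE; limma adjusted p = 0.214). Pkm had 7679, 10225, 5981 and 5738 at 4 C, against 5723, 6488, 6828 and 7583 at 22 C. It was higher at 4 C in both low-Xist libraries and lower in both high-Xist libraries, and the log2 fold change over all 8 was 0.12 ± 0.20 (SE; limma adjusted p = 0.769). Slc2a4 ranged over 2714 to 5918 at 4 C, against 2201 to 4175 at 22 C, at 0.32 ± 0.28 (SE; limma adjusted p = 0.535). Muscle marker levels varied within both groups, from 0.89 to 9.81 at 4 C and from 1.73 to 10.52 at 22 C.

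**Figure D5:**
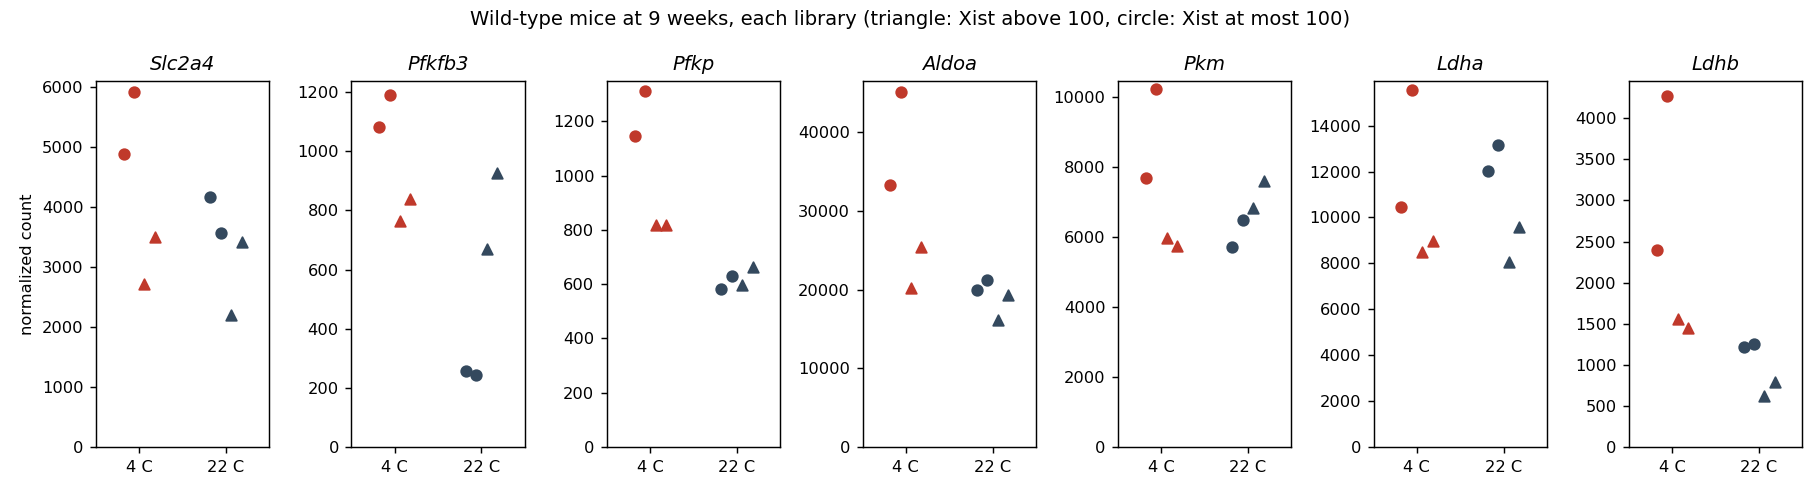
Normalized counts of the 7 members in adult wild-type libraries at 4 C, left, and 22 C, right, with libraries of low and high Xist drawn as different symbols. Pfkp and Ldhb at 4 C lie above all libraries at 22 C in both sets, whereas Pfkfb3 at 22 C is at 242 and 257 with low Xist and at 671 and 928 with high Xist.

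Only 1 gene of the surrounding lists passed in the adult cold comparison. Trarg1, a protein that travels with the Slc2a4 transporter, fell to 2039 ± 557 normalized counts at 4 C, against 7143 ± 2815 at 22 C (SD, n = 4 each), at -1.76 ± 0.33 (SE; limma adjusted p = 0.0317), as 1 of 19 tested regulators of uptake. Leaving out a library, it passed only without 22 C replicate 3, with adjusted p of 0.0509 to 0.1 by limma otherwise. None of 16 other glycolytic enzymes, 8 other transporters, 6 genes of fructose bisphosphate control or 17 of lactate and pyruvate handling passed limma's threshold. Over all tested genes of the adult cold comparison 4.47% were called.

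Taking both temperature comparisons as colder minus warmer, none of the 7 members differed between 9 weeks and P28 by the test of the difference, at an unadjusted p under 0.05 or adjusted; 16 of 11618 genes did after adjustment (0.138%). Ldhb had log2 differences of 1.24 for 4 C minus 22 C in adults and 0.66 for 22 C minus 30 C at P28, a difference of 0.59 ± 0.40 (SE; limma-based adjusted p = 0.532). For Ldha these were 0.01 and 0.52, a difference of -0.51 ± 0.28 (SE; limma-based adjusted p = 0.417), and for Pfkp 0.70 and 0.35, a difference of 0.35 ± 0.19 (SE; limma-based adjusted p = 0.417). Age and temperature range differ together here too.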

How the data were processed

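RNA-seq libraries of mouse inguinal fat, made with a stranded mRNA kit per the labels' protocols, were used as 5 deposited tables of normalized signal, that is, normalized counts per gene. The submitters' processing notes name kallisto, DESeq2 and mm10 as what the authors used, and their versions are not named in the sources used here. Each table was normalized separately, so tests stay within a table. Low values were whole multiples of the worth of 1 read, within a tolerance of 0.02, for 6.2 to 70.3% of values per library, so reads could not be recovered and no count test was run.

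Tests used limma 3.58.1 (R 4.3.3) with a mean-variance trend, on log2(value + 1), a scale that understates changes of genes with low values. Genes had to reach 10 in at least as many libraries as there are in the smaller group, which all 7 members did in each table. Benjamini-Hochberg adjustment ran over all genes tested in a table, and calls needed an adjusted p under 0.05. Fold changes from different tables were compared by a t test on the limma estimates. Gene symbols were looked up by identifier, and 21 identifiers had none. A marker level is the mean log2 value of a list's measured members; Xist counted as high above 100. Members and gene lists were chosen with earlier results of these data known. Some genes are not reported here and were left out of the lists. Named neighbours are the up to 4 genes with the smallest p among those past the threshold in each list. The code was tested on simulated data. Columns at P25 show a group but no sample number. Alternatives were another pseudocount (5), other filters and scalings, a replicate block, covariates and each library left out. Figures were drawn with matplotlib 3.10.9.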

Additional observations from a re-analysis of the deposited data

Results flagged for a closer look

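Of 63 groups of member values tested for a library far from the rest, 3 were flagged, and chance flags about 1 in 20. Pfkp in TrkA-flox Th-cre replicate 4 was 372 normalized counts, with the nearest of the other 3 libraries at 304, and it stayed below all wild-type libraries. Slc2a4 in the P25 Bcl6-flox library M4 was 8211, with the nearest of the other 6 at 4688; the same library was the highest of all 15 for Pfkp, Aldoa, Pkm, Ldha and Ldhb as well. Aldoa in replicate 4 of the 9-week group labelled Prx1-cre was 49613, with the nearest at 80406. That library was also the lowest of its group for Slc2a4, Pfkp, Pkm, Ldha and, narrowly, Ldhb.

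Pkm in adult wild-type fat went opposite ways in 2 sets of libraries defined from the data by Xist. Its difference between 4 C and 22 C was 0.54 on the log2 scale in the 2 libraries per group with low Xist and -0.3 in the 2 with high Xist, a gap of -0.84. Every library at 4 C was above both at 22 C in the first set and below both in the second. This gap was not tested.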

How the results depend on the processing

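Counts of members past the threshold moved with several choices. At P28, 30 C against 22 C, the count of 1 became 0 with no filter, upper-quartile scaling or the muscle covariate, 2 with at least 10 in every library, 3 with quantile normalization and 5 with the macrophage covariate, the last chosen after seeing the data. In the TrkA comparison 1 became 2 with quantile normalization and 0 with either covariate. For Bcl6 in the cold 0 became 1 with quantile normalization or the muscle covariate, fits that called 2113 and 2868 genes of the whole table in place of 1953. For adult temperature 0 became 1 with at least 10 in every library or upper-quartile scaling, 2 with quantile normalization or the muscle or Xist covariate, and 3 with the macrophage covariate, which also made 1 temperature effect differ between ages. The muscle, Xist and macrophage fits of that table called 1902, 2226 and 2518 genes in all, in place of 542. With a library left out, counts ranged from 0 to 4 at P28 by temperature, 0 to 2 for TrkA and 0 to 1 for Bcl6 in the cold, and stayed 0 elsewhere.

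Replicate numbers did not pair the libraries by the rule that every same-numbered pair correlates above 0.1: each table had a pair below it (-0.662 to 0.768 in all). In the adult temperature table, where Xist follows the number, replicates 2, 3 and 4 correlated at 0.768, 0.501 and 0.508 and replicate 1 at -0.262, and the block called 1666 genes in place of 542. With a replicate block 3 members were called at P28 by temperature, without Ldhb (limma adjusted p = 0.112), 1 for TrkA, 0 for Bcl6 in the cold and 2 for adult temperature. Columns at P25 carry no sample number, so no block was run there, and Xist could not be fitted as a covariate for Bcl6 in the cold, where it was high in all libraries.

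Some signs turned. With the macrophage covariate the log2 fold change was -0.029 for Pfkfb3 in TrkA, 0.20 for Aldoa and 0.022 for Pkm at P25, and -0.10 for Ldha by adult temperature. For Bcl6 in the cold it was 0.76 for Aldoa, 0.65 for Pkm, -0.58 for Pfkfb3, 0.77 for Ldha, -0.16 for Slc2a6 and 0.037 for Tigar, where that covariate separates the groups and leaves little to test. With the muscle covariate Slc2a4 in TrkA was 0.045 and Pfkp at P25 -0.017. Aldoa at P25 was 0.092 with quantile normalization and 0.013 with the Xist covariate, and Ldha by adult temperature was -0.085 with upper-quartile and -0.11 with quantile scaling. With a library left out, signs turned within -0.10 to 0.13 for Aldoa, -0.016 to 0.22 for Pfkp and -0.20 to 0.030 for Pkm at P25, -0.10 to 0.10 for Pfkp for Bcl6 in the cold, and -0.047 to 0.23 for Pkm and -0.18 to 0.11 for Ldha by adult temperature. The cause was not tested. No scaling moved the median of all genes by more than 0.1 on the log2 scale.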
